A study of Homo sapiens with 4 samples.

Results

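The angiogenic growth factors examined here are 10 of the 19062 genes named on the array: the VEGF family ligands VEGFA, VEGFB, VEGFC and PGF, the angiopoietins ANGPT1 and ANGPT2, the angiopoietin-like protein ANGPTL4, the fibroblast growth factor FGF2, the VEGF co-receptor NRP1 and the matrix-bound inhibitor THBS1. They were chosen with earlier results of these data known, so counts over the 10 genes are not an independent test. Their probes were taken by name, as every array probe whose accession maps to one of the 10 symbols, with no use of measured values. These probes numbered 14 of the 34127 on the array, with 2 probes each for VEGFA, FGF2, THBS1 and NRP1 and 1 probe each for the other 6 genes. In the study, SAS cells, a human tongue squamous carcinoma line, were infected with lentivirus and selected with puromycin (2 μg/ml) for 14 days. SB cells are the stable clones that carry a pLKO.1 shRNA against AEG-1 (LYRIC, listed as MTDH), and SCt cells carry the control, which is the empty pLKO.1 vector in the labels and a scrambled shRNA in the study's methods. Both groups thus went through infection and puromycin, and neither was an uninfected line. A total of 15 μg of RNA per labelling was hybridized to 4 dual-channel arrays, on each of which RNA of SB cells was red and RNA of SCt cells was green. Because 0 arrays had the dyes exchanged and all 4 shared 1 slide, a dye preference of a single probe and the difference between SB and SCt cells cannot be told apart. The labels call the arrays biological replicates, yet no separate cultures are named, so the SDs and p-values below measure the spread between 4 arrays, part or all of which may be technical.

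VEGF ligands act on receptor tyrosine kinases of endothelial cells. VEGFA drives the sprouting of blood vessels, VEGFC mainly that of lymphatic vessels, and VEGFB and PGF bind FLT1, while NRP1 holds VEGFA and class 3 semaphorins at the cell surface beside the kinase receptors. ANGPT1 and ANGPT2 are ligands of TEK, FGF2 is stored on heparan sulfate of the matrix, THBS1 restrains vessel growth through CD36 and CD47, and ANGPTL4, a target of PPARs and of hypoxia, inhibits lipoprotein lipase. Carcinoma cells secrete many of these factors, and the arrays read transcripts of the carcinoma cells alone, not secreted protein and not vessels.

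The arrays were first checked against the cell type and against the target of the shRNA. The 12 epithelial markers held KRT5, KRT14 and TP63 of squamous epithelium beside broader ones such as CDH1, EPCAM, KRT8 and KRT18. All 12 exceeded background clearly in each channel of all 4 arrays, and 0 of the 12 were called changed by limma, with 5 at an unadjusted p under 0.05. Their log2 ratios had a median of −0.06 and ran from −0.28 for KRT6A, −0.16 for ITGB4, −0.15 for SFN and −0.14 for EPCAM to 0.10 for CDH1 and 0.14 for both KRT14 and KRT18. Of 12 endothelial markers, 8 were measured, PECAM1, CDH5, VWF and KDR among them, with log2 ratios from −0.09 to 0.09, while EMCN was well above background on 0 arrays in either channel. Of 8 fibroblast markers, 4 were measured (COL1A1, COL1A2, DCN and THY1), and COL3A1 and LUM were well above background on 0 arrays. The 8 endothelial and 4 fibroblast markers measured also exceeded background clearly in each channel of all 4 arrays, and TIE1 and TEK did so on some arrays. Detection above background thus did not set the epithelial markers apart from those of other cell types. By limma, 0 genes of the endothelial and fibroblast lists were called, and 0 had an unadjusted p under 0.05. AEG-1 was 9.07-fold lower in SB cells (log2 ratio −3.18 ± 0.17, SD, n = 4 arrays; limma, adjusted p = 5.21e-10), and it was lower on 4 of 4 arrays. Between 84.7% and 90.3% of spots per channel and array were well above background.

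VEGFA was the single gene of the 10 whose transcript passed the test, and it was lower in SB cells at both of its probes. Its level in SB cells was about 76.0% and 73.1% of that in SCt cells by the respective probes. In RNA of whole cultures, fewer cells that make a transcript and less transcript per cell cannot be told apart. VEGFC, NRP1 and ANGPTL4 lay below SCt cells on every array by smaller amounts and did not pass. VEGFB, PGF, FGF2, ANGPT2 and THBS1 had log2 ratios near 0 whose sign varied between arrays, and ANGPT1 was not well above background. Over the 13 probes that could be tested, from 9 genes, 2 were called lower and 0 higher at an adjusted p of 0.05 (limma, Benjamini-Hochberg over all 28507 tested probes). At an unadjusted p under 0.05 there were 6, the probes of VEGFA, VEGFC, NRP1 and ANGPTL4, all lower, beside 18.7% of all tested probes in either direction and 9.44% lower. By the methods' t-test 0 of the 13 passed after adjustment, beside 0 of all 28507 tested probes, so that count says nothing particular about these genes. Among all tested probes, 3.7% were called in either direction, 2.38% lower and 1.32% higher. Both calls belong to 1 gene, so at the level of genes, read by the brightest probe, 1 of 9 was called beside 4.19% of 16583 genes. The median log2 ratio of the 13 probes was −0.06, beside 0.01 over all tested probes, with 8 means below 0 and 5 above 0. A total of 6 probes, from VEGFA, VEGFC, ANGPTL4 and NRP1, were lower on all 4 arrays, which held for 12.7% of all probes with 4 values, and 0 were higher on all 4 arrays, which held for 14.2%.

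**Figure D1:**
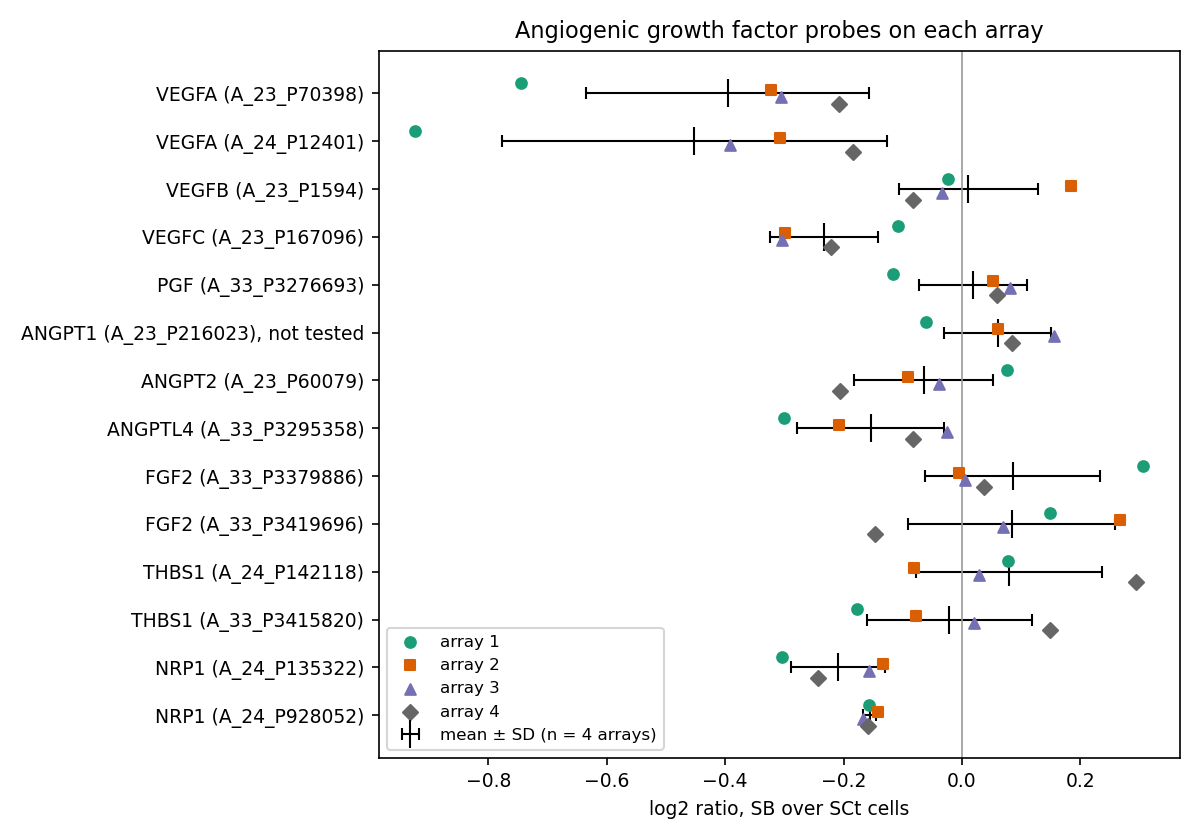
Each row is a probe of the 10 genes, the x axis is the SB over SCt log2 ratio, coloured symbols are the 4 arrays, and the black tick and bar are the mean ± SD. Both VEGFA probes lie below 0 on all arrays with array 1 farthest out, whereas the VEGFB, PGF, FGF2, ANGPT2 and THBS1 probes straddle 0.

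The brighter VEGFA probe, A_23_P70398 (designed on NM_001025370), gave normalized log2 intensities in SCt cells of 11.70, 12.16, 12.14 and 11.89 on arrays 1 to 4. In SB cells the same probe gave 10.96, 11.84, 11.83 and 11.68. The value of SB cells was the lower one on each array, although the ranges of both groups across arrays overlapped, and the gap was widest on array 1. The corresponding log2 ratios were −0.75, −0.32, −0.31 and −0.21, with a mean of −0.40 ± 0.24 (SD, n = 4 arrays). The standard error was 0.081, the 95% interval ran from −0.57 to −0.22, and the adjusted p from limma was 0.0203. As a share of the level in SCt cells this is 76.0%, with an interval from 67.3% to 85.9%.

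The other VEGFA probe, A_24_P12401 (designed on NM_001025366), read 9.98, 10.72, 10.53 and 9.93 in SCt cells on arrays 1 to 4. In SB cells it read 9.05, 10.41, 10.14 and 9.75. Again each array had the lower value in SB cells, with overlapping ranges across arrays and the widest gap on array 1. The log2 ratios were −0.92, −0.31, −0.39 and −0.18, with a mean of −0.45 ± 0.33 (SD, n = 4 arrays; SE 0.099; limma, adjusted p = 0.0277). This corresponds to 73.1% of the SCt level, with a 95% interval from 63.0% to 84.9%. The probes differed from each other by 0.06 ± 0.09 on the log2 scale (SD, n = 4 arrays), less than the spread of either between arrays. They read transcripts of 1 gene in the same RNA and are not independent measurements of it. Of all tested probes, 0.674% had a log2 ratio as low as that of A_23_P70398, and 0.421% one as low as that of A_24_P12401.

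The VEGFA calls were lost without array 1, 2 or 3. Fewer of all tested probes were then called too, 638, 421 and 204 against 1055 as reported. Without array 1 the log2 ratios were −0.28 and −0.29, with adjusted p-values (limma) of 0.0580 and 0.0563. Without array 2 they were −0.42 and −0.50 (limma, adjusted p = 0.0564 and 0.0506). Without array 3 they were −0.43 and −0.47 (limma, adjusted p = 0.140 and 0.193). Leaving out array 2 or 3 thus moved both ratios farther from 0. Both probes stayed below 0 in all 14 alternatives tried, with log2 ratios from −0.46 to −0.28 and from −0.54 to −0.29, and 8 and 6 of the alternatives respectively kept the call, over adjusted p-values from 8.93e-05 to 0.355 and from 1.74e-05 to 0.394.

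**Figure D2:**
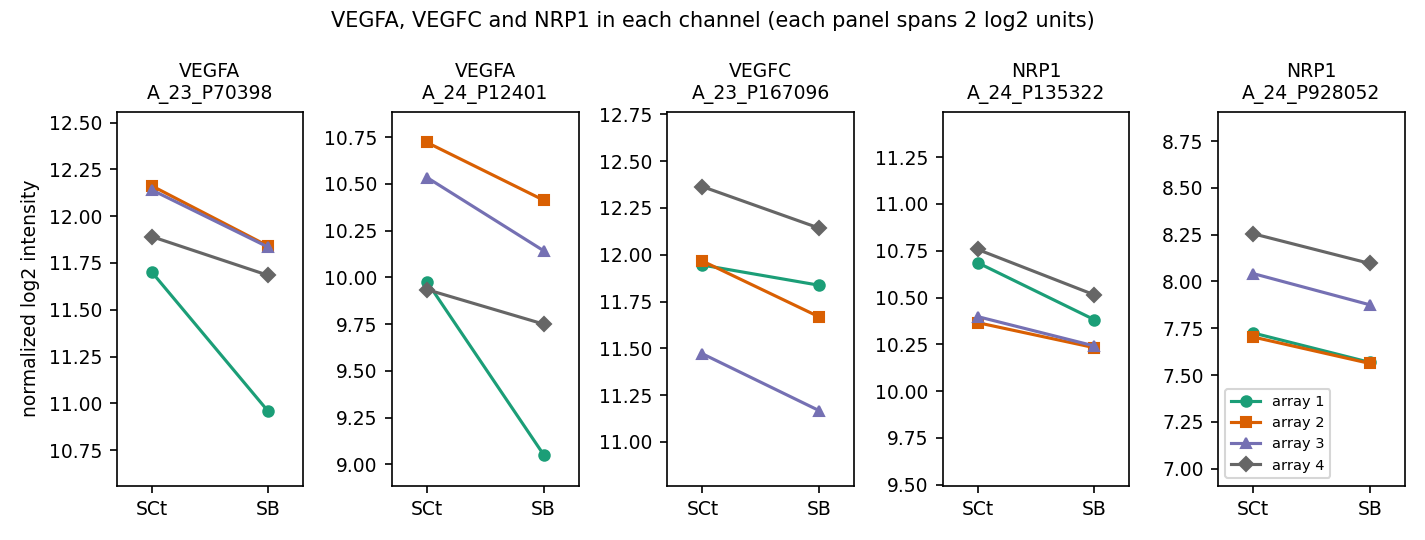
Normalized log2 intensity in SCt and SB cells, joined by a line for each of the 4 arrays, for the VEGFA, VEGFC and NRP1 probes. Every line slopes down from SCt to SB cells, while the arrays differ in height by more than most of these slopes; the y axes span the same number of log2 units but start at different heights, and levels are not comparable between probes.

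VEGFC, the lymphangiogenic ligand of FLT4, was read by A_23_P167096 (NM_005429). SCt cells gave normalized log2 intensities of 11.94, 11.97, 11.47 and 12.36, and SB cells gave 11.84, 11.67, 11.17 and 12.14. SB cells were lower on each array, by the least on array 1 and by about the same amount on arrays 2 and 3, and the ranges of both groups overlapped. The log2 ratios of −0.11, −0.30, −0.30 and −0.22 averaged −0.23 ± 0.09 (SD, n = 4 arrays; SE 0.058). The unadjusted p from limma was 0.00186 and the adjusted p was 0.0502, just outside the threshold. At 85.1% of the SCt level, with an interval from 77.9% to 92.9%, the difference was smaller than that of VEGFA, although the size of one against the other was not tested. With median centring VEGFC was at −0.12, the smallest value in a range down to −0.27. It was past the threshold in 4 of 14 alternatives, whose adjusted p-values from limma or the methods' t-test spanned 0.0361 to 0.275.

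NRP1, the co-receptor, had probes A_24_P135322 (NM_001024629) and A_24_P928052 (NM_003873). The former read 10.69, 10.37, 10.40 and 10.76 in SCt cells against 10.38, 10.23, 10.24 and 10.51 in SB cells, lower in SB cells on each array. Its log2 ratios were −0.30, −0.13, −0.16 and −0.24, with a mean of −0.21 ± 0.08 (SD, n = 4 arrays; limma, adjusted p = 0.0683). Over the alternatives its log2 ratio ran from −0.23 to −0.12, the smallest again with median centring, and 0 of 14 called it. The latter read 7.72, 7.70, 8.04 and 8.26 in SCt cells against 7.57, 7.56, 7.88 and 8.10 in SB cells. Its log2 ratios of −0.16, −0.14, −0.17 and −0.16 were the most even of any of the 14 probes, with a mean of −0.16 ± 0.01 (SD, n = 4 arrays; limma, adjusted p = 0.138). The 2 probes differed by −0.05 ± 0.08 (SD, n = 4 arrays), and together they placed NRP1 at 86.5% to 89.7% of its SCt level. A_24_P928052 passed the threshold in 3 alternatives, the scanner software's ratios (log2 ratio −0.31, adjusted p = 0.0426), the series table (0.0434) and median centring (−0.23, 0.0211), within a range over all alternatives from 0.0211 to 0.345 (limma or the methods' t-test).

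ANGPTL4 was read by A_33_P3295358 (NM_139314), at 8.24, 9.51, 9.17 and 8.80 in SCt cells and at 7.94, 9.30, 9.14 and 8.71 in SB cells. Arrays differed by more than a full log2 unit in both groups, and the ranges overlapped widely. The log2 ratios were −0.30, −0.21, −0.02 and −0.08, with a mean of −0.15 ± 0.12 (SD, n = 4 arrays; limma, adjusted p = 0.203). ANGPTL4 was below 0 in all 14 alternatives and past the threshold in 0 of them, with log2 ratios from −0.20 to −0.11. As for VEGFA, its sign could not turn where an array was left out or only the filter or the test changed.

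Of the 4 genes that were lower on all arrays, VEGFC and ANGPTL4 have an entry in the RefSeq promoter table (GRCh38.p14). The 250 bases before the start of each are shown because they adjoin the transcription start of members that were low on every array. They are written 5′ to 3′ on the strand of the gene, and capitals mark matches, on either strand, to the hypoxia response core (ACGTG or GCGTG), the NF-kB motif (GGG, any 5 bases, then CC) and the AP-1 motif (TGANTCA). The VEGFC stretch is chr4:176792923-176793172 on the minus strand, and the ANGPTL4 stretch is chr19:8363905-8364154 on the plus strand.
VEGFC: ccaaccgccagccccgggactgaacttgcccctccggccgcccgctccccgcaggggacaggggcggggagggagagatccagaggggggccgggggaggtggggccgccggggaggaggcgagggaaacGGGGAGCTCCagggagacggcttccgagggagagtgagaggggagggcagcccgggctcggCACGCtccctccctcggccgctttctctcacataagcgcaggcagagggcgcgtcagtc
ANGPTL4: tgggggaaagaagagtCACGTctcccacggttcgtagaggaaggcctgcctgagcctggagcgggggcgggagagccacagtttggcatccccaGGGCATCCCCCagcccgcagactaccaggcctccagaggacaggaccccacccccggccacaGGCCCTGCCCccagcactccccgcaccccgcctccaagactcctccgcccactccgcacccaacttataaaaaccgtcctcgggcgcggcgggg
VEGFC held 1 hypoxia core match, CACGC at positions −59 to −55 from the start, and 1 NF-kB match. ANGPTL4 held 1 hypoxia core match, CACGT at positions −234 to −230 from the start, and 3 NF-kB matches, of which 2 overlap each other by all but 1 base. Neither held an AP-1 match. Members with ratios near 0 held such matches too. VEGFB held 1 hypoxia core and 8 NF-kB matches, FGF2 held 1 of each, and THBS1 held 1 hypoxia core and 0 NF-kB matches. PGF held 1 hypoxia core and 4 NF-kB matches before 1 of its starts, and 2 NF-kB matches before another. The motifs were thus not particular to the members that were low on every array. Over the same 250-base window of all 35116 promoters in the table, 43.2% held the hypoxia core, 54.4% the NF-kB motif and 6.57% the AP-1 motif, so that single matches of the first 2 kinds are common. The VEGFC and ANGPTL4 stretches were 74% and 68.8% G or C, above the median promoter at 58%. A match is a run of letters and was not tested for binding by any factor.

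THBS1, the inhibitor among the 10, had probes A_24_P142118 and A_33_P3415820, both designed on NM_003246 and both very bright. The former gave 16.16, 15.92, 16.01 and 16.02 in SCt cells and 16.24, 15.84, 16.04 and 16.31 in SB cells, with no common direction across arrays. Its log2 ratio was 0.08 ± 0.16 (SD, n = 4 arrays; limma, adjusted p = 0.570), with a 95% interval from −0.07 to 0.23. The latter had log2 ratios of −0.18, −0.08, 0.02 and 0.15, with a mean of −0.02 ± 0.14 (limma, adjusted p = 0.896) and an interval from −0.16 to 0.12. Both intervals reach no farther than 0.23 from 0, so a change of THBS1 of the size of the VEGFA means lies outside them. The direction of THBS1 depended on the normalization: with the median of each array set to 0 in place of loess, the log2 ratios were 0.48 and 0.30 (limma, adjusted p = 0.000975 and 0.0075), whereas the scanner software's ratios gave −0.03 for A_24_P142118, within ranges of adjusted p over the alternatives from 0.000975 to 0.968 and from 0.0075 to 0.994.

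FGF2 was read by A_33_P3379886 and A_33_P3419696, both on NM_002006. The first had log2 ratios of 0.31, −0.01, 0.00 and 0.04, with a mean of 0.09 ± 0.15 (SD, n = 4 arrays; limma, adjusted p = 0.527), array 1 standing apart from the other three. The second had 0.15, 0.27, 0.07 and −0.15, with a mean of 0.08 ± 0.17 (limma, adjusted p = 0.564), and here array 4 was the low one. The means differed by 0.002 on the log2 scale, but the probes differed by up to 0.27 on a single array (array 2).

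VEGFB (A_23_P1594, NM_003377) had normalized log2 intensities from 10.94 to 11.41 in SCt cells and from 10.86 to 11.60 in SB cells. Its log2 ratios were −0.02, 0.18, −0.03 and −0.08, averaging 0.01 ± 0.12 (SD, n = 4 arrays; limma, adjusted p = 0.947), with a 95% interval from −0.12 to 0.14. PGF (A_33_P3276693, NM_002632), which like VEGFB binds FLT1, had −0.12, 0.05, 0.08 and 0.06, with a mean of 0.02 ± 0.09 (limma, adjusted p = 0.898) and an interval from −0.11 to 0.15. For both ligands 1 array lay on the other side of 0 from most or all of the rest, array 2 for VEGFB and array 1 for PGF. Within the VEGF family, then, the values below 0 on every array were those of VEGFA and VEGFC, and the intervals of VEGFB and PGF do not reach the mean of VEGFC.

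The angiopoietins were close to the detection limit. ANGPT2 (A_23_P60079, NM_001147), the context-dependent antagonist of ANGPT1 at TEK, cleared background on 4 arrays in the channel of SB cells but on 3 in that of SCt cells. Its log2 ratios were 0.08, −0.09, −0.04 and −0.21, with a mean of −0.06 ± 0.12 (SD, n = 4 arrays; limma, adjusted p = 0.619). With median centring in place of loess, ANGPT2 was at −0.37 with an adjusted p of 0.00327 (limma), in a range over all alternatives from 0.00327 to 0.932. ANGPT1 (A_23_P216023, NM_001146) was well above background in neither channel on any array and was left out of the test, and no fold is given for it. TEK itself and its partner TIE1 did not pass the same filter.

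**Figure D3:**
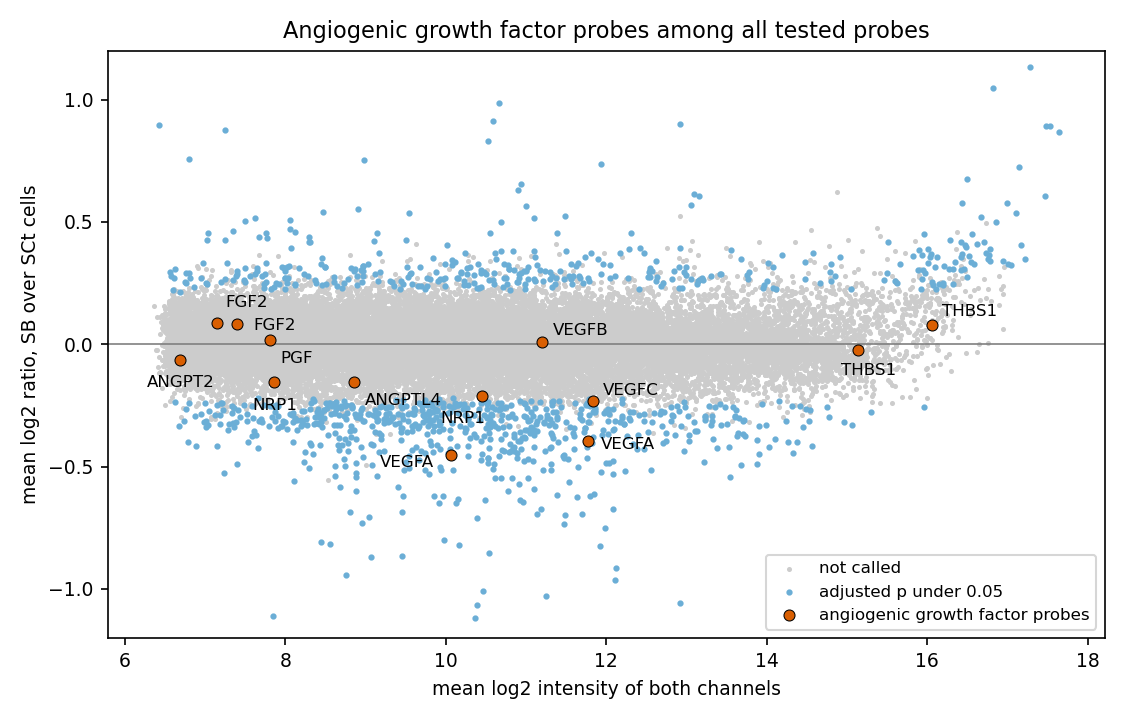
Mean log2 ratio of SB over SCt cells against the mean log2 intensity of both channels for all tested probes, grey where not called and blue where the adjusted p was under 0.05, with the 13 tested growth factor probes in orange; 10 probes beyond ±1.2 on the y axis are not drawn. The VEGFA probes lie among the blue points on the lower edge of the cloud, VEGFC and the brighter NRP1 probe lie near its edge, and THBS1 lies at the bright end, where called probes turn upward.

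Around these 10 genes, 7 lists of related genes were read, 1 brightest probe a gene: receptors and co-receptors, other angiogenic ligands, inhibitors, the other angiopoietin-like proteins, hypoxia regulators and response genes, PPARs with their targets, and proteoglycans and carriers that hold growth factors. Of 108 listed genes, 91 were measured, 3 were called higher and 3 lower (limma, adjusted p under 0.05), beside 4.19% of all genes called in either direction, and their median log2 ratio was 0.01. The lists were chosen with earlier results of these data known, so these counts are not an independent test.

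Among 14 of 18 receptors measured, PLXNA1, a semaphorin co-receptor that pairs with NRP1, fell on 4 of 4 arrays (−0.35 ± 0.10, SD, n = 4 arrays; limma, adjusted p = 0.00747), and the vitronectin receptor subunit ITGB5 rose (0.39 ± 0.20; adjusted p = 0.0146). CD47, the THBS1 receptor, was at −0.22 (limma, adjusted p = 0.0669). FLT1 was too dim to be tested, and the log2 ratios of KDR, the main VEGFA receptor, and FLT4 were 0.09 and 0.03. KDR was itself dim, with mean log2 intensities of 6.75 in SB and 6.66 in SCt cells. Among 22 of 24 other ligands, CXCL8, a chemokine with angiogenic activity, fell (−0.42 ± 0.23; limma, adjusted p = 0.0152; −0.81 with the scanner software's ratios). CXCL8 was dim as well, with mean log2 intensities of 6.94 in SB and 7.36 in SCt cells. APLN (−0.27; limma, adjusted p = 0.0568) and CCN1 (0.21; 0.058) did not pass. Among 8 of 10 proteoglycans and carriers, the heparan sulfate proteoglycan SDC4 fell on 4 of 4 arrays (−0.45 ± 0.18; limma, adjusted p = 0.0052), and the heparan sulfate-cleaving enzyme HPSE (0.22; 0.0727) and the FGF2 carrier FGFBP1 (0.20; 0.110) did not pass.

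Hypoxia and PPARs are known regulators of VEGFA and ANGPTL4. All 21 genes of the hypoxia list were measured, with a median log2 ratio of 0.00. The list mixes regulators such as HIF1A, ARNT, VHL and HIF1AN with response genes, so its median is not a reading of the response alone. Of the 21, 1 was called, the carbonic anhydrase CA12, which rose (0.44 ± 0.11, SD, n = 4 arrays, limma, adjusted p = 0.00229). NDRG1, a strongly hypoxia-inducible gene, had log2 ratios of −0.84, −0.27, 0.13 and 0.17, and VHL was at 0.18 (limma, adjusted p = 0.106). Whether hypoxia or PPARs act on VEGFA or ANGPTL4 in these cells was not tested. Of 10 PPAR genes measured, 1 was called, the fatty acid carrier FABP4, which was 0.88 ± 0.27 higher on the log2 scale (limma, adjusted p = 0.000267, and 1.81 with the scanner software's ratios), with ACADVL at −0.12 and CPT1A at 0.10. The study had already named FABP4 among the larger changes on these same arrays, so its call was known in advance. FABP4 was dim, with mean log2 intensities of 7.69 in SB and 6.81 in SCt cells. Of 4 other angiopoietin-like genes measured, 0 were called and 1 had an unadjusted p under 0.05 (limma), namely ANGPTL2 (0.14), beside ANGPTL8 (0.06) and ANGPTL1 (0.05). Of 12 inhibitors measured, 0 were called and 0 had an unadjusted p under 0.05 (limma). The 3 largest inhibitor values were those of SEMA3A (−0.20), ADAMTS1 (−0.15) and THBS2 (0.12), of which THBS2 was at −0.19 by its other probe. Without array 3 the calls over the 7 lists fell from 6 to 2, CA12 and FABP4, while those over all tested probes fell from 1055 to 204. Without array 4 the calls numbered 11 over the lists and 1977 over all tested probes. The call of CXCL8 was lost without array 1, 2 or 3, that of ITGB5 without array 2 or 3 and with either the software's ratios or those of the series table (limma, adjusted p = 0.0506 and 0.0521), that of PLXNA1 without array 3, and that of SDC4 without array 3 and with median centring (−0.19, adjusted p = 0.0526), in each case with the direction kept.

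Median centring in place of loess called 8939 of all 28507 tested probes and 33 of the 91 list genes, against 1055 and 6 as reported. Genes that had not passed moved with it: CCN1 to 0.54, VHL to 0.56, APLN to −0.44, FGFBP1 to 0.38 and ANGPTL2 to 0.25. All of these were then past the threshold (limma, adjusted p = 0.000326, 0.000401, 0.00377, 0.00411 and 0.0151). Median centring also brought ANGPTL1 to −0.19 with its sign turned (limma, adjusted p = 0.0394). It turned ACADVL to 0.16 without a call and brought CD47 to −0.07. APLN passed in 4 further alternatives, with no background correction (0.0323), normexp without an offset (0.0471), eBayes with trend and robust options (0.0295) and without array 2 (0.0436), and HPSE passed with the eBayes options alone (0.0476). Without array 4, CD47 (0.0144), CCN1 (0.0392), FGFBP1 (0.037) and NDRG1 (−0.32, 0.0285) passed. Without array 1, NDRG1 was at 0.01 and SEMA3A and ADAMTS1 were each at −0.06, and without array 4 THBS2 was at −0.003.

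**Figure D4:**
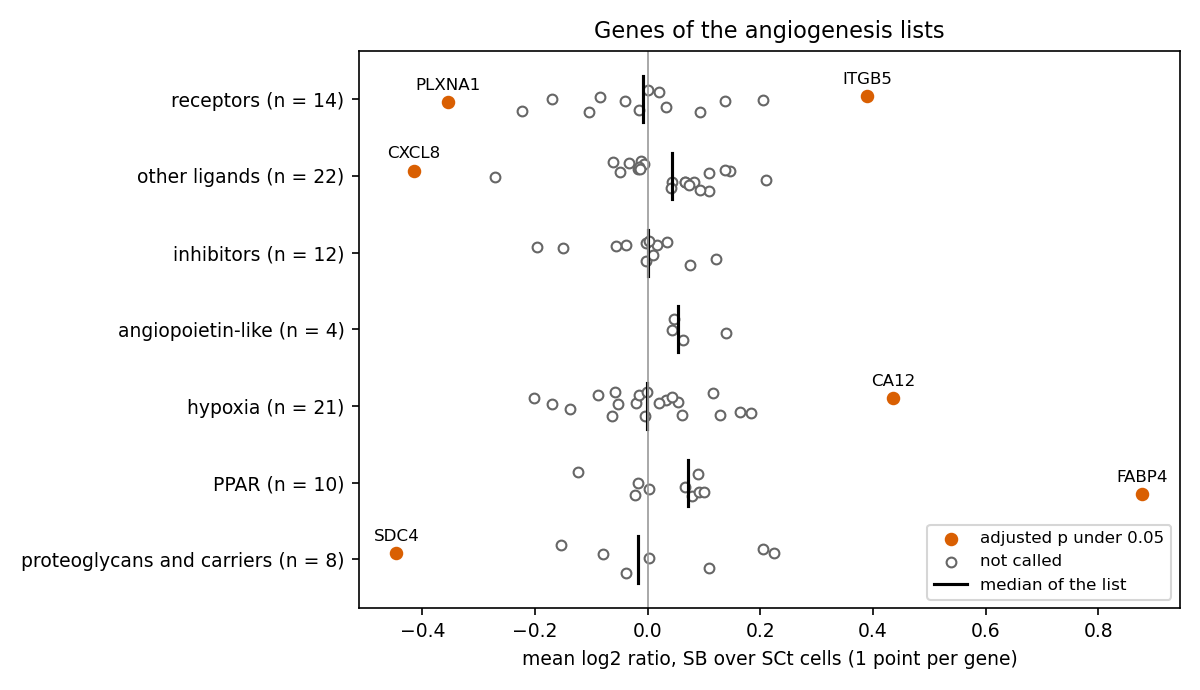
Mean log2 ratio of SB over SCt cells for each measured gene of the 7 lists, 1 point per gene, orange and named where the adjusted p was under 0.05, with a black bar at the median of each list. The medians lie close to 0, and the 6 called genes come from 5 of the lists.

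**Figure D5:**
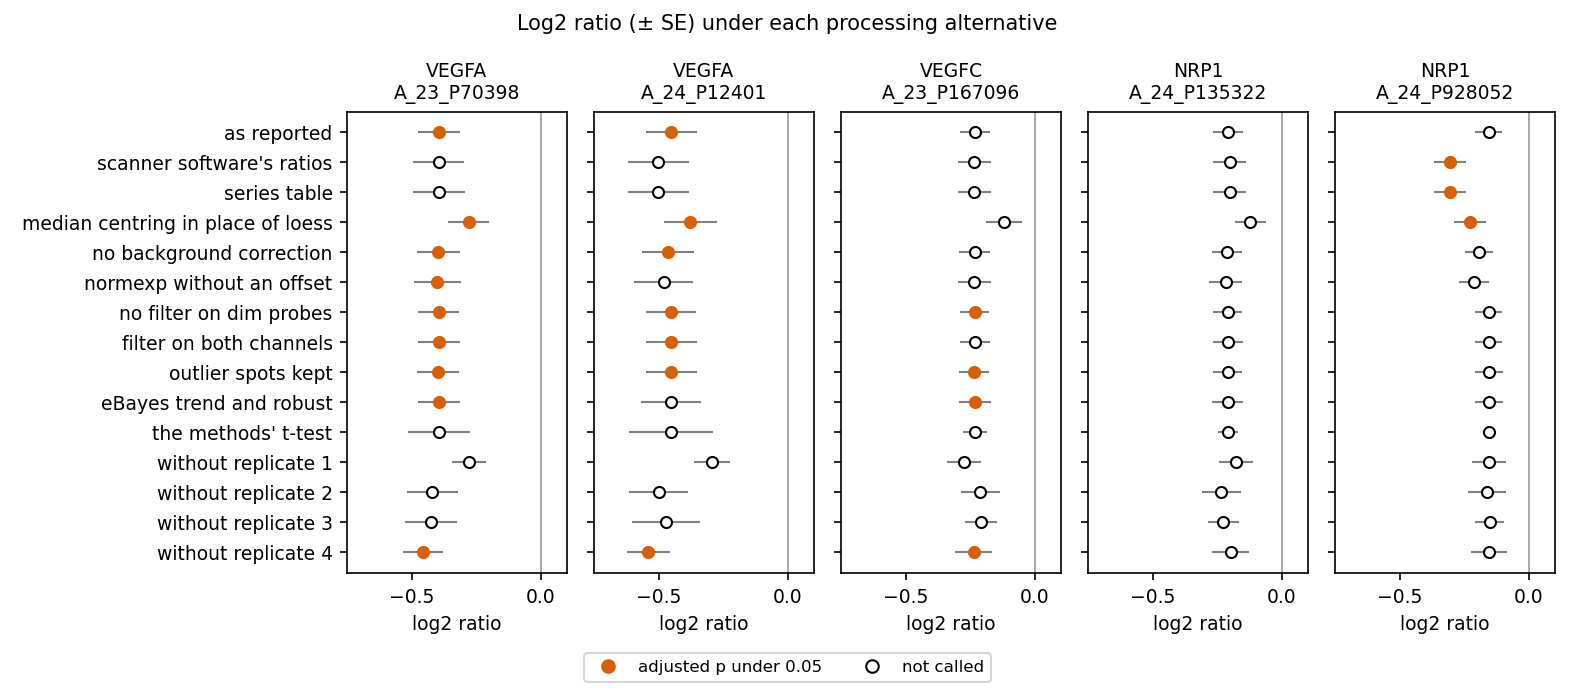
Log2 ratio ± SE of the VEGFA, VEGFC and NRP1 probes as reported and under each of 14 processing alternatives, filled orange where the adjusted p was under 0.05. All points lie below 0, which was fixed in advance where an array was left out or only the filter or the test changed. The threshold is crossed in both directions between alternatives.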

How the data were processed

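For each of the 4 arrays the authors deposited the scanner output of Agilent Feature Extraction 10.5.1.1: red and green median intensities of each spot on a linear scale with local background intensities, not normalized, and the software's log10 ratio of red over green. The deposited series table holds log2 ratios of SB over SCt; 92.5% to 95.4% of its probes per array lay within 0.001 of the software's ratios, and its column medians were −0.02 to 0.02. No aligner applies. Median intensities replaced the mean intensities named in the planned design.

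With R 4.3.3 and limma 3.58.1, background was corrected by normexp (offset 50) on all 44495 spots, 1377 control spots and 814 to 1168 outlier spots per array were left out, log2 ratios were loess-normalized within arrays, and spots of a probe were averaged. The offset shrinks the ratios of weak spots. Levels are log2 intensities of each channel after loess and Aquantile. A probe was kept if 1 of its channels was well above background on every one of the 4 arrays and if at least 2 arrays gave values, 28507 of 34127. The mean log2 ratio was tested against 0 with lmFit and eBayes, with Benjamini-Hochberg adjustment over all kept probes. All 4 arrays shared 1 slide and 1 scan, so no batch term could be used, and their number limits the precision. Steps were tested on simulated data.

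Probes were named by accession through RefSeq (GRCh38.p14): 24826 matched, 9301 did not. Named are all probes of the 10 members, AEG-1, and from each list every called gene up to 6 and the 3 largest changes; other markers and the receptors of the members were named after their values were seen. The members and lists were chosen with earlier results of these data known. Alternatives replaced the ratios (by those of the software or of the series table), the loess (by median centring), the background correction (by none, or by normexp with no offset), the filter (by none, or by one on both channels), the removal of outlier spots, the eBayes options (trend and robust), or limma by the methods' t-test, or left out each array in turn.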

Additional observations from a re-analysis of the deposited data

Results flagged for a closer look

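In 3 of the 35 sets of 4 array values examined, 1 array stood apart from the rest by more than the critical share of the whole range; about 5% of such sets do so by chance. For PGF (A_33_P3276693), array 1 at −0.12 was set off from arrays at 0.05, 0.08 and 0.06, a gap of 0.852 of the range. For FGF2 (A_33_P3379886), array 1 at 0.31 was set off from −0.01, 0.00 and 0.04, a gap of 0.862. For VHL (A_33_P3419938), array 2 at 0.06 was set off from 0.22, 0.23 and 0.22, a gap of 0.907.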

How the results depend on the processing

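The test was already paired, because each array sets SB against SCt cells and the log2 ratios within arrays were tested against 0. No further pairing was possible, as the series has 1 group of arrays. The member probes called numbered 2 as reported, 1 with the software's ratios, 1 with the series table, 1 by normexp without an offset, 6 with median centring (4 lower, 2 higher), 0 by the methods' t-test (4 at an unadjusted p under 0.05), and from 0 to 3 with each array left out. Of the pathway list genes, 6 were called as reported, 33 with median centring (6 lower, 27 higher), 0 by the methods' t-test (14 unadjusted) and from 2 to 11 with each array left out. Of all probes, 1055 were called as reported (679 lower, 376 higher), 8939 with median centring (3340 lower, 5599 higher), 0 by the methods' t-test (3936 unadjusted) and from 204 to 1977 with each array left out. AEG-1 stayed at −3.18 by the methods' t-test but with an adjusted p of 0.144, and at −3.24 to −3.10 with each array left out. Signs turned in members near 0. With median centring, FGF2 was at −0.101 (A_33_P3379886) and −0.0544 (A_33_P3419696), PGF at −0.056 and THBS1 (A_33_P3415820) at 0.302. With the software's ratios and with the series table alike, PGF was at −0.0295, THBS1 (A_24_P142118) at −0.032 and VEGFB at −0.0262. With each array left out, PGF ranged from −0.0018 (without array 3) to 0.0641, THBS1 (A_33_P3415820) from −0.0781 to 0.0304 (without array 1) and VEGFB from −0.0465 (without array 2) to 0.0421. Other alternatives of a member probe kept its direction, 145 with the call unchanged, 14 with it lost and 9 with it gained. The cause was not tested. Weak signal limits ANGPT1 and ANGPT2.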
